A study of Mus musculus with 3 samples.

Results

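Kinesins are motor proteins that use ATP to move along microtubules or to take microtubule ends apart. In dividing cells a specialised group builds the spindle, moves the chromosomes and sets up the cleavage of the cell, and in cells at rest other members carry vesicles, organelles and ciliary proteins. Most hepatocytes of an adult liver are not in division, and the genes of the mitotic motors are known to be expressed mainly in the later phases of the cell cycle. The kinesin genes described here were all those whose symbol in the array annotation is Kif, a number and an optional letter. This gave 37 genes of the 19084 genes on the array, with 47 probes. 9 of them, Kif2c, Kif4, Kif11, Kif15, Kif18a, Kif20a, Kif20b, Kif22 and Kif23, were taken as the mitotic members, and the other 28 were set beside them. Roles are given below as known from mammals, for the mitotic motors mostly from human cells.

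Ymac-1 is a cell line grown out of a liver tumor of an aged Gnmt-/- mouse and kept in culture over many passages. HCC is hepatocellular carcinoma tissue from a female Gnmt-/- mouse, and normal liver came from a female wild type mouse. Gnmt, which encodes the liver enzyme glycine N-methyltransferase, is thus disrupted in the animals behind the Ymac-1 and HCC arrays. Ages of the HCC and normal liver mice are not stated, and the study took the profiles of both tissues from its earlier work. Whether the tissue arrays were run together with the Ymac-1 array is not stated. A difference between runs cannot be told apart from a difference between Ymac-1 and the tissues. RNA of each was hybridized to 1 array, so that Ymac-1 is 1 line, each tissue is 1 sample, and no difference given here has a replicate check or a P value. Values are linear probe intensities. Those under 50 were set to this floor before the log2 step, and genes differing by a log2 value of at least 1, a fold of 2, were called higher or lower. Where either value was at or under the floor the fold is a lower bound, written as "at least". For a gene with several probes, the probe brightest on average over the arrays on the log2 scale was used.

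Gnmt read 56.1 in Ymac-1, 15.6 in HCC and 3583 in normal liver. All 12 measured hepatocyte markers lay above the floor in HCC and in normal liver, and 5 of the 12 in Ymac-1. Of 32 markers of macrophages, endothelial cells, and stellate cells and fibroblasts, 6 lay above the floor in Ymac-1, 30 in HCC and 27 in normal liver. Of 5 bile duct markers, 3 lay above it in Ymac-1, 4 in HCC and 2 in normal liver, with summed intensities of 14693 in Ymac-1, 703 in HCC and 161 in normal liver. Most of the Ymac-1 sum came from Krt7, at 6382, and Krt19, at 7891, and Sox9 was also higher in Ymac-1 than in HCC. Epcam went the other way, at 0.54 in Ymac-1, 382 in HCC and 66.5 in normal liver. Cftr was under the floor on every array. The arrays also differed in brightness. Over the 7687 genes that exceeded the floor on every array, the median log2 difference was 0.06 for Ymac-1 minus HCC, 0.65 for HCC minus normal liver, and 0.72 for the Ymac-1 array minus normal liver. In such bulk samples, fewer cells of a type and less RNA per cell cannot be told apart.

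The promoters of the mitotic members are shown first, because many genes of late cell division carry a cell cycle genes homology region (CHR, TTTGAA) next to their start and some carry sites for E2F factors. RefSeq promoters of the mouse build GRCm38.p6 were matched to 31 of the 37 kinesins and to 8 of the 9 mitotic members, each spanning 250 bases before to 50 bases after an annotated start. Kif13b, Kif19a, Kif20a, Kif21b, Kif5a and Kif5b had no entry. For 7 members the 120 bases before and the 30 bases from the start are printed below, 5′ to 3′ on the strand of the gene, with base 121 as the start. They are Kif23 chr9:61946770-61946919 on the minus strand, Kif20b chr19:34922238-34922387 on the plus strand, Kif22 chr7:127042391-127042540 on the minus strand, Kif11 chr19:37376262-37376411 on the plus strand, Kif15 chr9:122950961-122951110 on the plus strand, Kif18a chr2:109280618-109280767 on the plus strand and Kif18b chr11:102925095-102925244 on the minus strand. Capitals mark TTTGAA, the CCAAT box CCAAT and the E2F words TTTCGCGC, TTTGGCGC, TTTCCCGC and TTTGCCGC, and a match on the other strand appears as its reverse complement.
Kif23: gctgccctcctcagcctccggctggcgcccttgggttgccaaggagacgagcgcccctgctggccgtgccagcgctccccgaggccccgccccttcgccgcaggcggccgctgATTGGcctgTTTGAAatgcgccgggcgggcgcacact
Kif20b: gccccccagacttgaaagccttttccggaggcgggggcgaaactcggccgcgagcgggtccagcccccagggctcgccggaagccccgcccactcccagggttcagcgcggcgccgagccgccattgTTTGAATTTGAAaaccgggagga
Kif22: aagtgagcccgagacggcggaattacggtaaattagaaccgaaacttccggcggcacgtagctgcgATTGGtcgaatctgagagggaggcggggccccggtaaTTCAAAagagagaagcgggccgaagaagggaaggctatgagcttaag
Kif11: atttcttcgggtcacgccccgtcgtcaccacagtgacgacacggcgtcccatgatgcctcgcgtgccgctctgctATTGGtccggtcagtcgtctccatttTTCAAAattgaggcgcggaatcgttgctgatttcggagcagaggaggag
Kif15: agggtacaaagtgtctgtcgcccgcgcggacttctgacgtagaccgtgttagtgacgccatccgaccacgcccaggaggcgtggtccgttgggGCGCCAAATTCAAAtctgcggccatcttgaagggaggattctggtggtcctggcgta
Kif18a: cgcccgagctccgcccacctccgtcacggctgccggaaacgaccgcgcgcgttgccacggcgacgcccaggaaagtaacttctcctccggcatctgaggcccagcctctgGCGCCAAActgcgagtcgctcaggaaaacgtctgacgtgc
Kif18b: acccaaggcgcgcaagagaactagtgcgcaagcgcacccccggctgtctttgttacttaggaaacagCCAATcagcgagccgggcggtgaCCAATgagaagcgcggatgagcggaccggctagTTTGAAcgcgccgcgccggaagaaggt
The set was chosen to show the CHR at or near the start of mitotic members, the 2 mitotic promoters with an E2F word, and Kif18b from outside the mitotic list.

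TTTGAA stood in the promoter window of 7 of 8 mitotic members (87.5%). It stood in 5 of 23 other members (21.7%), in 20.2% of the 27025 genes with a promoter in the table and in 17.9% of its 32851 promoters. The 7 mitotic members include Kif2c, whose annotated start in this set lay inside the gene. That start fell within chr4:117178743-117178892 on the minus strand, where the gene runs from 117159633 to 117182624. The Kif2c match is thus not near the upstream end of the gene. Counted from the start as base 1, the leftmost base of the match as printed lay at -19 in Kif11, at -19 and -234 in Kif15, at -17 and -215 in Kif22, at -103 in Kif2c, at 3 in Kif23, at 20 in Kif4, and at 8 and 14 in Kif20b. Kif18a was the mitotic member without it. Its promoter held an E2F word at -10, and that of Kif15 held one at -27, where it shares no base with the CHR that follows. E2F words stood in 2 of 8 mitotic members (25%), in 0 of 23 other members and in 2.6% of all genes with a promoter. CCAAT stood in 4 of 8 mitotic members (50%), 10 of 23 other members (43.5%) and 41.1% of all genes with a promoter. Outside the mitotic list, TTTGAA was found in Kif14, Kif18b, Kif1a, Kif26b and Kif27, in Kif18b at position 4. A match is a run of letters and was not tested as a binding site.

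Of the 9 mitotic kinesins, 8 lay above the floor in Ymac-1, and 5 of these were at or under it in both tissues. 8 of the 9 were higher in Ymac-1 cells than in HCC and 0 were lower, where 14.7% of all genes were higher and 15.9% lower. Of the 28 other members, 5 were higher and 4 lower. The median log2 difference was 3.78 over the mitotic members, 0 over the other members and 0 over all genes. In HCC 3 mitotic members lay above the floor and in normal liver 1 did, and of the 28 others 16 lay above it in Ymac-1, 16 in HCC and 9 in normal liver. A value above the floor in Ymac-1 alone was found for 5 of 9 mitotic members, 4 of 28 others and 4.89% of all genes. Such a value need not mean expression, since the disrupted Gnmt read 56.1 in Ymac-1. Among the 4 others, Kif24 and Kif5c were close to this, at 63.8 and 63.7. Markers of tissue cells were dimmer on the same array, with summed intensities of 1535 in Ymac-1 and 379245 in HCC for the 12 hepatocyte markers and of 902 in Ymac-1 and 27433 in HCC for 11 macrophage markers. Their part in the kinesin differences was not tested. The mitotic count stayed at 8 under each of 4 other scalings of the arrays. The 5 others that were higher became 9 after quantile normalization, 10 under median scaling and 6 under upper quartile scaling. Under scaling on genes shared by the arrays they became 3. Of all genes, 16%, 20.2%, 16% and 13.5% were higher under these 4 scalings in turn. The mitotic count became 7 with a floor of 100, where Kif15 fell below the threshold at 0.47 and 13.1% of all genes were higher.

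**Figure D1:**
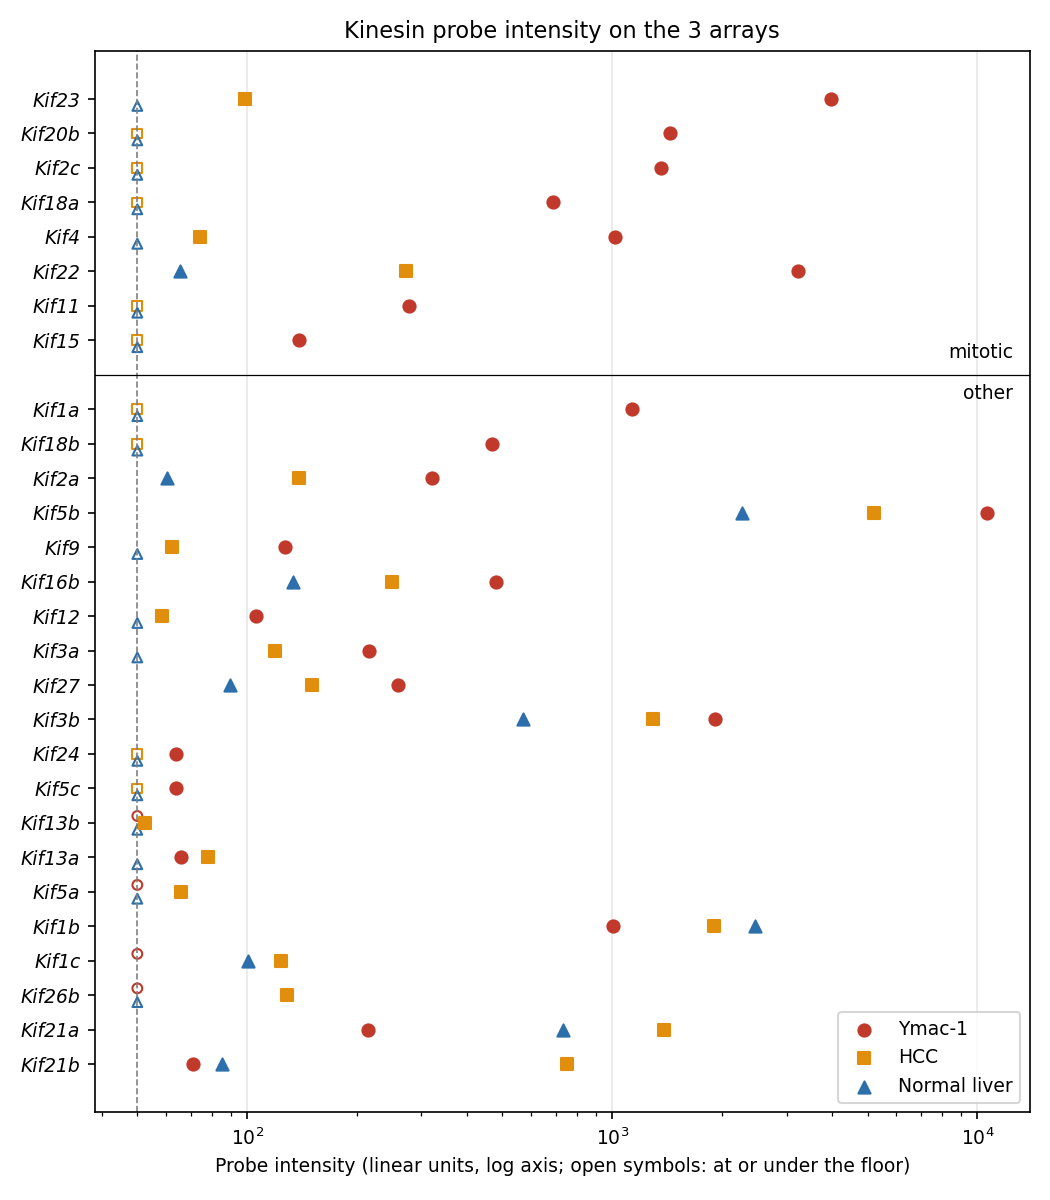
Linear intensity on a log axis of the 28 Kif genes above the floor of 50 (dashed line) on at least 1 array, for Ymac-1 (circles), HCC (squares) and normal liver (triangles), with 1 array each and open symbols for values at or under the floor. All 8 mitotic members drawn had their highest value in Ymac-1, while Kif1b, Kif1c, Kif21a and Kif21b were among the others with their highest value in a tissue.

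Kif11 and Kif15 push the poles of the spindle apart. Kif11, the main motor of this task, read 277 in Ymac-1, 28.1 in HCC and 8.04 in normal liver, and was at least 5.53-fold higher in Ymac-1 cells than in HCC. Kif15, which can take over when Kif11 is inhibited, read 138 in Ymac-1, 15.4 in HCC and 3.04 in normal liver, at least 2.77-fold higher in Ymac-1 cells than in HCC. Both were under the floor in HCC and in normal liver, so that no fold between the tissues can be given.

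Kif2c and Kif18a act where microtubules meet chromosomes. Kif2c, which takes microtubules apart at centromeres and so corrects wrong attachments, read 1363 in Ymac-1, 25.8 in HCC and 6.94 in normal liver, at least 27.3-fold higher in Ymac-1 cells than in HCC. Kif18a, which damps the swings of chromosomes at the spindle equator, read 688 in Ymac-1, 10.4 in HCC and 5.56 in normal liver, at least 13.8-fold higher in Ymac-1 cells than in HCC. Both lay above the floor in Ymac-1 alone.

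Kif4 and Kif22 are chromokinesins, motors that sit on chromosome arms. Kif22 read 3232 in Ymac-1, 273 in HCC and 65.5 in normal liver. It was the 1 mitotic member above the floor on every array, 11.8-fold higher in Ymac-1 cells than in HCC and 4.17-fold higher in HCC than in normal liver. Kif4 read 1015 in Ymac-1, 74.1 in HCC and 17.5 in normal liver, which is 13.7-fold higher in Ymac-1 cells than in HCC. Its second probe read 572 in Ymac-1, 16.0 in HCC and 6.01 in normal liver. Both Kif4 probes were thus past the threshold between Ymac-1 and HCC, at log2 differences of 3.78 and at least 3.52.

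The kinesin-6 motors Kif20a, Kif20b and Kif23 act at the central spindle and in the cleavage of the cell. Kif23, the motor subunit of the centralspindlin complex, read 3961 in Ymac-1, 98.3 in HCC and 18.2 in normal liver. It was 40.3-fold higher in Ymac-1 cells than in HCC. Kif20b, which is needed to complete cytokinesis, read 1441 in Ymac-1, 34.9 in HCC and 10.6 in normal liver, at least 28.8-fold higher in Ymac-1 cells than in HCC. Kif20a, which brings Aurora B to the central spindle, read 4.71 in Ymac-1, 2.70 in HCC and 2.42 in normal liver. Its only probe was under the floor on every array, which leaves the level of Kif20a unmeasured, and it was the mitotic member that did not differ past the threshold.

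**Figure D2:**
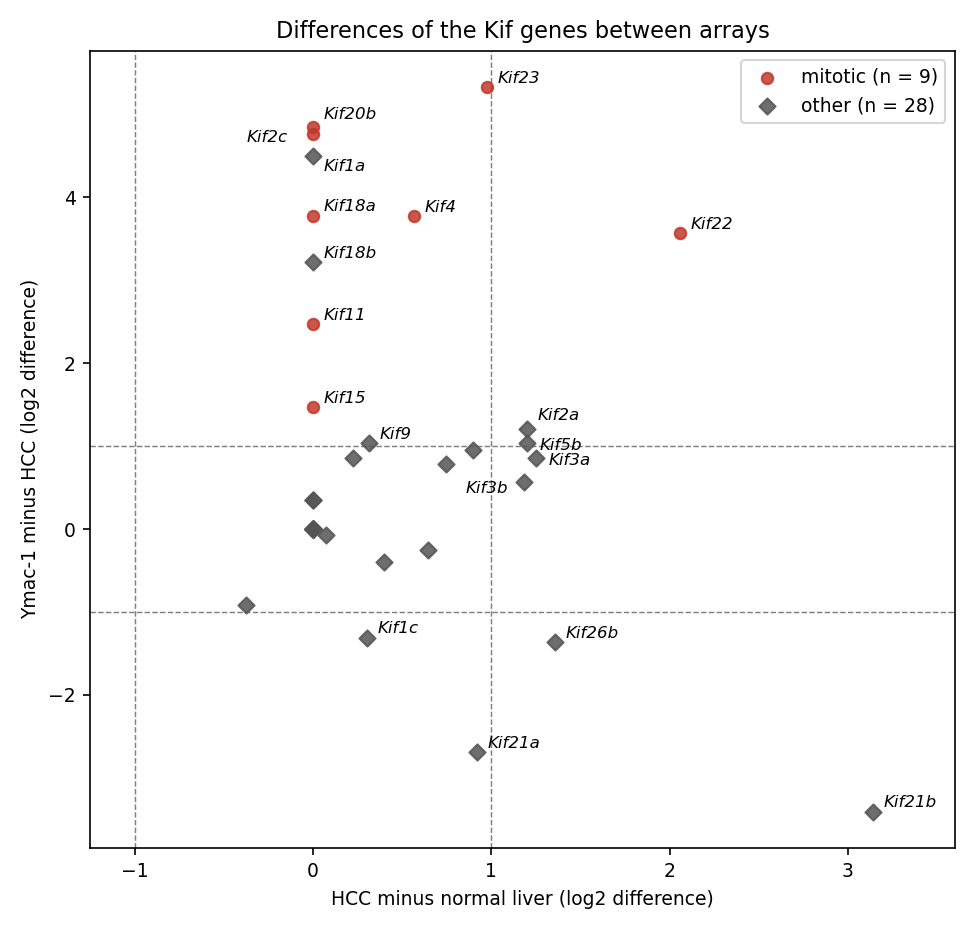
Log2 difference of Ymac-1 minus HCC against that of HCC minus normal liver for the 37 Kif genes (mitotic, circles; other, diamonds), with the threshold of 1 dashed. Genes under the floor in both tissues are drawn at 0 on the horizontal axis, which for 6 mitotic members is no measured difference, Kif22 lies past the threshold on both axes and Kif21b lies at 3.14 across and -3.41 down, while under median scaling of the arrays Kif2a, Kif3b and Kif5b would lie at -0.08, -0.10 and -0.08 across.

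Proteins that work with these motors in division were taken as a list of 26 genes, of which 25 had a probe. 22 of the 25 were higher in Ymac-1 cells than in HCC and 0 were lower, where 14.7% of all genes were higher and 15.9% lower, and the median log2 difference was 4.07. Cdca8, a subunit of the chromosomal passenger complex, read 2191 in Ymac-1, 37.9 in HCC and 7.39 in normal liver, at least 43.8-fold higher in Ymac-1 cells than in HCC. Bub1, a kinase of the spindle checkpoint, read 1826 in Ymac-1, 16.5 in HCC and 3.52 in normal liver, at least 36.5-fold higher in Ymac-1 cells than in HCC. At the other end of the list as floored stood Numa1 and Ckap2. Numa1, which anchors microtubules at spindle poles, read 517 in Ymac-1, 245 in HCC and 261 in normal liver, a measured log2 difference of 1.08 for Ymac-1 minus HCC. Ckap2, a microtubule protein of the spindle, read 84.3 in Ymac-1, 12.3 in HCC and 4.07 in normal liver, a difference of at least 0.75. Differences against a value under the floor are bounds, so they give no order among these genes. The binding partners of Kif23 and Kif4 were looked at after their values were seen. Racgap1, the other subunit of centralspindlin, was 33.3-fold higher in Ymac-1 cells than in HCC, at 2880 in Ymac-1 and 86.5 in HCC, and Prc1, the bundling protein that Kif4 carries to microtubule ends, was 13.4-fold higher, at 3922 in Ymac-1 and 293 in HCC. Nusap1 and Cdk1 were at or under the floor on every array. 21 or 22 members of this list were higher in Ymac-1 cells than in HCC under the 4 other scalings, where 13.5% to 20.2% of all genes were. Between HCC and normal liver 8 were higher and 0 lower as deposited, where 15.9% of all genes were higher. Under the other scalings 6 to 8 were higher, where 2.92% to 5.54% of all genes were. Between Ymac-1 and normal liver 21 were higher and 0 lower, where 23.3% of all genes were higher.

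Among the 28 other kinesins, Kif1a and Kif18b had the highest lower bounds for Ymac-1 over HCC. Kif1a, a motor for synaptic vesicle precursors known mainly from neurons, read 1128 in Ymac-1, 22.5 in HCC and 4.94 in normal liver, at least 22.6-fold higher in Ymac-1 cells than in HCC. The second Kif1a probe read 93.4 in Ymac-1, 5.82 in HCC and 2.93 in normal liver. Its log2 difference of Ymac-1 minus HCC was at least 0.90, a bound short of the threshold. Both Kif1a probes were above the floor in Ymac-1 alone, so both differences are lower bounds and give no order between the probes. Kif18b, which shortens astral microtubules in mitosis, read 467 in Ymac-1, 14.4 in HCC and 8.56 in normal liver, at least 9.33-fold higher in Ymac-1 cells than in HCC. Kif1a and Kif18b were past the threshold under all 4 other scalings. Kif14 and Kif24, which also have roles around division and at centrioles, were not past it. Kif2a, which acts at spindle poles too and is given below, was past it. Kif14 read 7.89 in Ymac-1, 3.70 in HCC and 3.004 in normal liver, and Kif24 read 63.8 in Ymac-1, 25.3 in HCC and 15.5 in normal liver. Both Kif14 probes were under the floor on every array, which leaves the level of Kif14 unmeasured.

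Kif5a, Kif5b and Kif5c are the conventional transport motors. Kif5b, the heavy chain of kinesin-1 that most cells use, read 10636 in Ymac-1, 5192 in HCC and 2262 in normal liver, 2.05-fold higher in Ymac-1 cells than in HCC. Its second probe read 6168 in Ymac-1, 2267 in HCC and 930 in normal liver, and both probes had the same order of arrays. With arrays scaled on their shared genes, the Kif5b difference of Ymac-1 minus HCC was 0.97, just short of the threshold. Kif5a and Kif5c, the heavy chains typical of neurons, were near the floor. Kif5a read 3.09 in Ymac-1, 65.9 in HCC and 7.94 in normal liver, and Kif5c read 63.7 in Ymac-1, 38.6 in HCC and 10.01 in normal liver. Kif2a, a depolymerase of spindle poles and of neurites, read 322 in Ymac-1, 139 in HCC and 60.4 in normal liver, 2.31-fold higher in Ymac-1 cells than in HCC. Kif9, a motor of motile cilia and sperm, read 127 in Ymac-1, 62.1 in HCC and 18.1 in normal liver. Its log2 difference of Ymac-1 minus HCC was 1.03 and became 0.52 as the mean of both probes, the second of which was under the floor on every array. It was also short of the threshold at a floor of 100, at 0.34, and under scaling on shared genes, at 0.96.

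Kif3a and Kif3b form the kinesin-2 motor that carries proteins into cilia. Kif3b read 1907 in Ymac-1, 1289 in HCC and 568 in normal liver, and Kif3a read 215 in Ymac-1, 119 in HCC and 36.2 in normal liver. The Ymac-1 minus HCC differences were 0.57 for Kif3b and 0.85 for Kif3a. The second Kif3b probe read 1377 in Ymac-1, 579 in HCC and 252 in normal liver, a difference of 1.25, so the 2 probes of Kif3b lay on either side of the threshold. The third subunit, Kifap3, read 584 in Ymac-1, 248 in HCC and 122 in normal liver, 2.35-fold higher in Ymac-1 cells than in HCC. Kif16b, a motor of early endosomes, read 481 in Ymac-1, 248 in HCC and 134 in normal liver, with a Ymac-1 minus HCC difference of 0.95. Kif27, which has a role in motile cilia, read 258 in Ymac-1, 150.3 in HCC and 89.6 in normal liver, and Kif12, known from kidney, read 106 in Ymac-1, 58.4 in HCC and 16.1 in normal liver. All of these read highest in Ymac-1 and lowest in normal liver. As deposited, Kifap3 and the second Kif3b probe were the ones past the threshold between Ymac-1 and HCC. Kif3a, Kif16b, Kif27 and Kif12 passed it after quantile normalization and under median scaling, at 1.07 to 1.43. Kif3b passed it under median scaling, at 1.05, and Kif16b also under upper quartile scaling, at 1.09.

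Kif1c, Kif21a, Kif21b and Kif26b were lower in Ymac-1 cells than in HCC. Kif21b, a kinesin-4 motor that slows microtubule growth and is known from dendrites and lymphocytes, read 70.9 in Ymac-1, 753 in HCC and 85.3 in normal liver. It was 10.6-fold lower in Ymac-1 cells than in HCC and 8.83-fold higher in HCC than in normal liver. Kif21a, its close relative, which holds microtubule growth in check at the cell edge, read 214 in Ymac-1, 1384 in HCC and 732 in normal liver, 6.47-fold lower in Ymac-1 cells than in HCC. Kif21a and Kif21b kept these calls under all 4 other scalings. Of 9 lymphocyte markers, 3 lay above the floor in Ymac-1, 4 in HCC and 3 in normal liver, with summed intensities of 189 in Ymac-1, 856 in HCC and 382 in normal liver. Cd4, Cd8a, Cd3g, Ms4a1 and Nkg7 were under the floor on every array, and the leukocyte antigen Ptprc read 51.1 in Ymac-1, 293 in HCC and 127 in normal liver. The part of such cells in the Kif21b values was not tested.

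Kif26b, a kinesin with a role in kidney development that lacks motor activity, read 8.43 in Ymac-1, 128 in HCC and 26.1 in normal liver, at least 2.57-fold lower in Ymac-1 cells than in HCC. Kif1c, which carries vesicles toward the cell edge, read 44.7 in Ymac-1, 124 in HCC and 100.6 in normal liver, at least 2.48-fold lower in Ymac-1 cells than in HCC. The Ymac-1 minus HCC calls of Kif26b and Kif1c were both lost under quantile normalization, at -0.92 and -0.85, and under median scaling, at -0.86 and -0.81, and at a floor of 100, at -0.36 and -0.31. Kif1b, which moves mitochondria and vesicles, read 1003 in Ymac-1, 1900.4 in HCC and 2464 in normal liver. Its Ymac-1 minus HCC difference of -0.92 did not reach the threshold, and it was 2.46-fold lower in Ymac-1 cells than in normal liver. The second Kif1b probe read 996 in Ymac-1, 1801 in HCC and 2551 in normal liver, so that the 2 probes gave the same order of arrays.

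**Figure D3:**
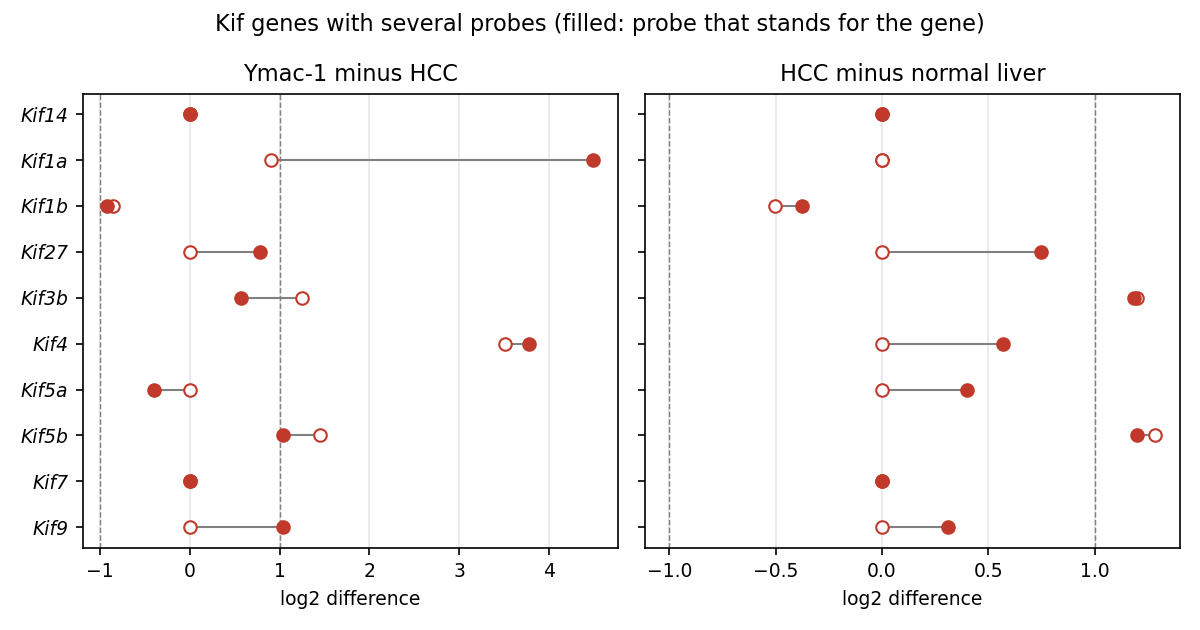
Log2 differences of the 10 Kif genes with several probes, for Ymac-1 minus HCC (left) and HCC minus normal liver (right), with the probe that stands for the gene filled, the other open and the threshold of 1 dashed. The probes of Kif1b, Kif4 and Kif5b lie close together on the left, and those of Kif1a lie at 4.50 and 0.90, both lower bounds.

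8 other members were at or under the floor on every array. They were Kif14, Kif17, Kif19a, Kif26a, Kif2b, Kif3c, Kif6 and Kif7, with values between -1.55, for Kif17 in Ymac-1, and 35.0, for Kif7 in Ymac-1. Kif17 and Kif3c are further kinesin-2 motors, Kif6 and Kif19a are known from cilia, and Kif7 acts in Hedgehog signalling at the cilium. The vesicle motors Kif13a and Kif13b were near the floor. Kif13a read 65.8 in Ymac-1, 78.1 in HCC and 41.4 in normal liver, and Kif13b read 12.1 in Ymac-1, 52.5 in HCC and 16.0 in normal liver. None of these 10 genes was past the threshold in any of the 3 comparisons at the floor of 50.

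Between HCC and normal liver only 3 mitotic members could be read, Kif22, Kif23 and Kif4, and each read higher in HCC as deposited. 1 of the 9, Kif22, was higher in HCC and 0 were lower, where 15.9% of all genes were higher and 0.749% lower. 6 of the 28 other members were higher and 0 lower. The median log2 difference was 0 over the mitotic members, 0.15 over the others and 0.02 over all genes. Kif23 had a difference of 0.98 and Kif4 of 0.57, both lower bounds because normal liver was under the floor, and at a floor of 25 both passed the threshold, at 1.98 and 1.57. The other 6 mitotic members were under the floor in both tissues, so that no difference between these was measured and the floor fixed the median of 0. Kif22 was past the threshold at 2.06 as deposited and at 1.33 with arrays scaled on their shared genes, and it was 0.78 under median scaling. Of 5 erythroid precursor markers, from a lineage that divides, 3 were called higher in HCC and 0 lower. The summed intensity of the 5 was 12254 in HCC and 1269 in normal liver, with 58.9 in Ymac-1, and most of it came from Alas2 and Hbb-b1. Klf1 read 121 in HCC and 142 in normal liver, Epb42 was under the floor on every array, and 1 marker was called lower under quantile, median and upper quartile scaling. Their part in the Kif22 difference was not tested.

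The 6 others called higher in HCC were Kif2a, Kif3a, Kif3b, Kif5b, Kif21b and Kif26b. Kif2a and Kif5b were each 2.30-fold higher, Kif3b 2.27-fold, Kif3a at least 2.38-fold and Kif26b at least 2.57-fold. With the general brightness of the HCC array taken out by scaling on shared genes, the log2 differences were 0.47 for Kif2a, 0.47 for Kif5b, 0.45 for Kif3b and 0.99 for Kif3a, all short of the threshold, and 1.14 for Kif26b and 2.41 for Kif21b. Under median scaling Kif2a, Kif3b and Kif5b turned slightly lower in HCC, at -0.08, -0.10 and -0.08. Kif21b alone of these 6 was past the threshold under all 4 other scalings, at 1.86 or more. Over all kinesins the count was 7 higher and 0 lower as deposited, 2 and 0 after quantile normalization, 1 and 1 under median scaling, and 3 and 1 under upper quartile scaling and under scaling on shared genes. Over all genes called, the share that was higher in HCC was 95.5% as deposited, 59.3% after quantile normalization, 20.1% under median scaling, 57.6% under upper quartile scaling and 64.5% under scaling on shared genes.

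Between Ymac-1 and normal liver, 8 of 9 mitotic members were higher and 0 lower, with a median log2 difference of 4.34, where 23.3% of all genes were higher and 9.41% lower. Kif23 was at least 79.2-fold and Kif22 49.4-fold higher in Ymac-1 than in normal liver. Of the others, 10 were higher and 3 lower, with a median of 0. Kif5b was 4.70-fold, Kif2a 5.32-fold, Kif16b 3.601-fold, Kif3b 3.36-fold and Kif27 2.88-fold higher in Ymac-1 than in normal liver, and Kif3a was at least 4.30-fold higher. Kif1a, Kif18b, Kif9 and Kif12 completed the 10, the last at least 2.12-fold higher. Kif27 lost this call under each of the 4 other scalings, at 0.73 to 0.88, Kif3b under median scaling and under scaling on shared genes, at 0.95 in both, and Kif12 under upper quartile scaling and scaling on shared genes, at 0.95 and 0.79. Kif21a was 3.42-fold, Kif1b 2.46-fold and Kif1c at least 2.01-fold lower in Ymac-1 cells than in normal liver. Each of the 3 arrays stands in 2 of the 3 comparisons, so these are not independent of each other.

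Read over both steps at the floor of 50, 7 mitotic members and Kif18b, Kif1a and Kif9 were called higher in Ymac-1 against either tissue with no call between the tissues, where 10.8% of all genes had this pattern. For Kif23, Kif4 and Kif9 the difference between the tissues is a lower bound that passed the threshold at a floor of 25, and for the others neither tissue gave a value above the floor. Kif22, Kif2a and Kif5b were higher in Ymac-1 cells than in HCC and higher in HCC than in normal liver, where 3.67% of all genes were, and for Kif2a and Kif5b the step between the tissues was lost under each of the 4 other scalings. Kif21b and Kif26b were higher in HCC than in both of the other samples, as were 6.24% of all genes. For Ymac-1 minus HCC the kinesins called were 13 higher and 4 lower as deposited and 18 higher and 2 lower under median scaling, the most uneven of the 5 scalings. Over all genes the share of higher calls in that comparison was 48.1% as deposited and 64.6% under median scaling. For Ymac-1 minus normal liver it was 71.2% as deposited and 47.7% to 53.6% under the other scalings.

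Motors of the superfamily that are not named Kif gave 4 genes with a probe. Cenpe, the kinesin that carries chromosomes to the spindle equator, read 361 in Ymac-1, 13.7 in HCC and 2.52 in normal liver, at least 7.23-fold higher in Ymac-1 cells than in HCC. Kifc3, a minus-end motor of cell junctions and Golgi, read 4119 in Ymac-1, 1310 in HCC and 400 in normal liver, 3.14-fold higher in Ymac-1 cells than in HCC and 3.28-fold higher in HCC than in normal liver. The call between the tissues was lost under median, upper quartile and shared-gene scaling. Under these scalings 0 of these 4 genes were higher in HCC, where 2.92%, 5% and 5.54% of all genes were. Kifc2 read 56.6 in Ymac-1, 415 in HCC and 202 in normal liver, 7.33-fold lower in Ymac-1 cells than in HCC. Kifc5b was under the floor on every array, at 34.3 in Ymac-1, 11.3 in HCC and 8.04 in normal liver.

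Light chains, adaptors and cargo partners of the transport motors formed a list of 16, of which 12 had a probe. 2 were higher and 2 lower in Ymac-1 cells than in HCC, near the 14.7% and 15.9% of all genes, and the median log2 difference was 0. Mapk8ip1, a scaffold that links kinase and kinesin-1, read 260 in Ymac-1, 46.1 in HCC and 12.1 in normal liver, at least 5.20-fold higher in Ymac-1 cells than in HCC. Kifap3, given above with Kif3a and Kif3b, was the other that was higher. Klc4, a light chain of kinesin-1, read 167 in Ymac-1, 1189 in HCC and 1282 in normal liver, 7.12-fold lower in Ymac-1 cells than in HCC. Trak1, the adaptor that ties kinesin-1 to mitochondria, read 537 in Ymac-1, 1246 in HCC and 1230 in normal liver, 2.32-fold lower in Ymac-1 cells than in HCC. The other 8 differed by less than the threshold as deposited. Under median scaling 3 of the list were higher and 1 lower, where 20.2% and 11.1% of all genes were. Under upper quartile scaling 3 were higher and 2 lower, where 16% and 13.9% of all genes were. After quantile normalization and under scaling on shared genes both counts stayed at 2. Between HCC and normal liver 5 of the list were higher and 0 lower as deposited, where 15.9% of all genes were higher. Under each of the 4 other scalings 0 were higher, where 2.92% to 5.54% of all genes were. Between Ymac-1 and normal liver 6 were higher and 2 lower, where 23.3% of all genes were higher and 9.41% lower. Under the other scalings 3 or 4 were higher, where 14.2% to 16.1% of all genes were.

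**Figure D4:**
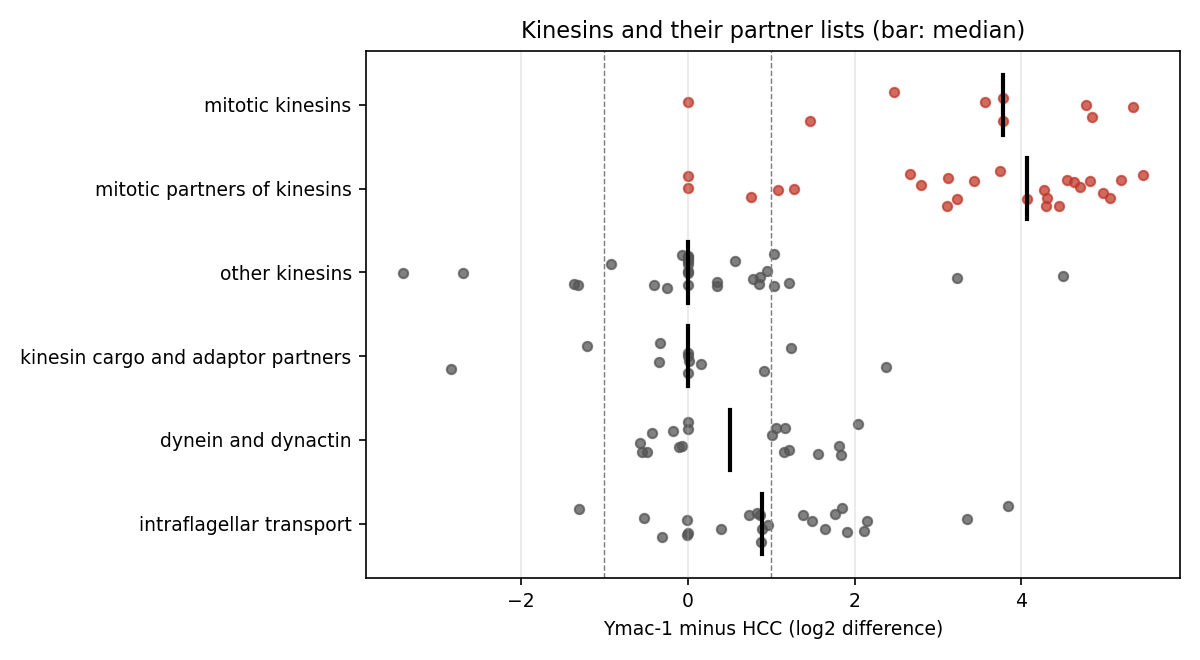
Log2 differences of Ymac-1 minus HCC for each gene of the mitotic kinesins, their mitotic partners, the other kinesins, the cargo and adaptor partners, dynein and dynactin, and intraflagellar transport, with a bar at each median and the threshold of 1 dashed. The medians were 3.78 for the mitotic kinesins and 4.07 for their partners, and 0 for the other kinesins and for the cargo partners.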

How the data were processed

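RNA of Ymac-1 cells, HCC tissue and normal liver was measured with 1 array per condition. The paper describes Mouse Whole Genome OneArrays in the single colour Cy5. It does not say whether the tissue arrays, taken from earlier work, were processed in the same run. The deposited values are linear intensity values for 26423 probes, from which the authors had subtracted a background, so that some lie at or below 0 (5.11% of probes in Ymac-1, 2.68% in HCC and 5.59% in normal liver). The sources used here name neither the scanner nor a scaling between arrays, and none was added. Precision is limited by the number of arrays. A change of scaling moves the differences between 2 arrays, and the floor shortens those of dim genes.

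Gene symbols came from the platform annotation, where 21876 probes had 1 symbol, 0 several and 4547 none. Values under 50 were set to 50, and the log2 difference was taken per gene. With no replicates, no test was run, and lists are described by counts and medians. The text names every Kif gene, and of each partner list the 2 highest and 2 lowest measured genes in Ymac-1 minus HCC. Members and lists were chosen with earlier results of these data known. The code was tested on simulated data. A planned step on protein sequences was not run. Of the per-sample columns, 0 were left unused. Alternatives were other scalings, floors, thresholds, probe rules, filters and a wider mitotic list. Scripts ran in Python 3.11.15 (pandas 2.3.3, numpy 2.4.6, matplotlib 3.10.9).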

Additional observations from a re-analysis of the deposited data

How the results depend on the processing

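Of the counts and medians that answer a comparison, 75 of those recomputed under an alternative stayed near the value reported and 27 moved. Of the differences of single kinesins, 703 kept their call or stayed without one, 44 lost a call, 27 gained one and 3 called differences reversed. A difference that stayed short of the threshold was counted among the 703 whatever its sign. The 703 also include genes at or under the floor on every array. A median was taken to have moved when it changed by more than the median range between probes of a gene. Scaling on genes shared by all arrays was added after seeing the data.

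The 5 other kinesins higher in Ymac-1 cells than in HCC became 9 after quantile normalization, 10 under median and 3 under shared-gene scaling. They became 9 at a threshold of 1.5-fold, 2 at 4-fold, and 2 among genes exceeding the floor on all 3 arrays. Of all genes, 16%, 20.2% and 13.5% were higher under these scalings, and 20.3% and 5.62% at these thresholds. Under quantile, median, upper quartile and shared-gene scaling the 6 other kinesins higher in HCC than in normal liver became 1, 1, 2 and 2. At floors of 25 and 100 they became 10 and 3, and at thresholds of 1.5-fold and 4-fold 10 and 1. Of all genes, 4.79%, 2.92%, 5% and 5.54% were higher under these scalings, where 15.9% were as deposited. The shares were 20.8% and 11.7% at these floors, and 31.3% and 2.95% at these thresholds. The 10 other kinesins higher in Ymac-1 than in normal liver became 5 at 4-fold, where 11.4% of all genes were higher. Among genes exceeding the floor on all 3 arrays they became 5. No share of all genes was taken under that filter. The 1 mitotic member higher in HCC than in normal liver became 0 under median scaling, 3 at a floor of 25 and 2 at 1.5-fold. Of all genes 2.92%, 20.8% and 31.3% were higher at these settings. The median of mitotic less other members for HCC minus normal liver, -0.15, became -0.52 at a floor of 25 and 1.01 among genes exceeding the floor on all 3 arrays. For Ymac-1 minus normal liver, 4.34 became 3.34 at a floor of 100, 3.21 among genes above the floor on either array, and 3.50 with Kif14, Kif18b and Kif24 among the mitotic members. Genes exceeding the floor on all 3 arrays hold 1 mitotic and 8 other members, so both mitotic counts of 8 became 1 there. The median of mitotic less other members for Ymac-1 minus HCC, 3.78, became 2.89 in that set. Under median scaling the HCC minus normal liver differences of Kif2a, Kif3b and Kif5b reversed, to -0.081, -0.10 and -0.083.

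No paired analysis was possible because each condition has 1 array, and leaving out an array would leave none of its condition. Signal over background limits the tissues most, where 6 of 9 mitotic members in HCC and 8 of 9 in normal liver gave no measured value, so that most folds of Ymac-1 over them are bounds.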

Other observations

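Dynein, the motor that walks toward the minus ends of microtubules, and its activator dynactin formed a list of 21 genes, of which 18 had a probe. 9 were higher in Ymac-1 cells than in HCC and 0 were lower, where 14.7% of all genes were higher and 15.9% lower. The median log2 difference was 0.51. Under the other scalings 7 to 9 were higher, where 13.5% to 20.2% of all genes were. Dctn3, a dynactin subunit, read 2356 in Ymac-1, 571 in HCC and 452 in normal liver, 4.13-fold higher in Ymac-1 cells than in HCC. Dync1li1, a light intermediate chain, read 2719 in Ymac-1, 759 in HCC and 496 in normal liver, 3.58-fold higher in Ymac-1 cells than in HCC. The heavy chain Dync1h1 read 530 in Ymac-1, 785 in HCC and 542 in normal liver, a difference of -0.57 that did not reach the threshold. The second light intermediate chain, Dync1li2, read 448 in Ymac-1, 656 in HCC and 764 in normal liver, at -0.55.

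The 23 genes of intraflagellar transport, the cargo trains that kinesin-2 and dynein-2 move along cilia, all had a probe. 10 were higher in Ymac-1 cells than in HCC and 1 was lower, where 14.7% of all genes were higher and 15.9% lower. The median log2 difference was 0.89. Under the other scalings 10 to 15 were higher, where 13.5% to 20.2% of all genes were. Ift22 read 1433 in Ymac-1, 99.995 in HCC and 49.9 in normal liver, 14.3-fold higher in Ymac-1 cells than in HCC. Ift57 read 5504 in Ymac-1, 543 in HCC and 136 in normal liver, 10.1-fold higher in Ymac-1 cells than in HCC. Ift46 was the member that was lower, at 123 in Ymac-1, 304 in HCC and 197 in normal liver, 2.48-fold lower in Ymac-1 cells than in HCC. This call was lost under quantile normalization and median scaling, where 0 of the list and 13.6% and 11.1% of all genes were lower. Ift172 read 335 in Ymac-1, 483 in HCC and 342 in normal liver, a difference of -0.53. Of this list 8 genes were higher in HCC than in the normal liver as deposited, where 15.9% of all genes were. Under the other scalings 0 or 1 were higher, where 2.92% to 5.54% of all genes were.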
